A study of Mus musculus with 12 samples.

Results

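The genes described here are the writers and erasers of DNA methylation in mouse pre-B cells, namely the methyltransferases Dnmt1, Dnmt3a and Dnmt3b, the cofactors Uhrf1 and Uhrf2, and the dioxygenases Tet1, Tet2 and Tet3. They were found by matching the Ensembl identifiers of the count table to these 8 symbols, and all 8 had a row among 51826 genes and passed the filter on low counts that left 15038 genes for testing. RNA was measured in 12 lines of bone marrow-derived cells from 2 C57BL/6 mice, labelled as pro-/pre B cells. The marrow cells grew with IL7 for 7 days and were then transduced, and 3 lines per mouse received an empty vector (EV) and 3 received BCR-ABL1, the oncogenic kinase encoded by the Philadelphia chromosome. All lines kept IL7 for another 48 h. Transformation of the 6 BCR-ABL1 lines was completed over 1 week of culture lacking IL7. The 6 EV lines had IL7 over a like time and went through a GFP sort, which is not stated for the BCR-ABL1 lines. BCR-ABL1, withdrawal of IL7 and the lack of a stated sort coincided in every line and cannot be told apart. Lines are named by mouse (1 or 2) and letter (A to C), so that the 3 lines of a condition and mouse share a donor.

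In mammals, Dnmt1 copies the methylation of CpG sites to the new strand after replication, and Uhrf1 recognises hemimethylated CpG sites and brings Dnmt1 to them, while Dnmt3a and Dnmt3b methylate unmethylated sites. The Tet enzymes oxidise 5-methylcytosine with 2-oxoglutarate as cosubstrate, and the products are removed by base excision or diluted by replication. Uhrf2 is a paralogue of Uhrf1 with similar domains that does not replace it in maintenance and has been described as a reader of 5-hydroxymethylcytosine. Only RNA was measured, neither protein nor methylation.

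The deposited values were whole read counts per gene, which summed to between 34791011 and 66011225 per line. They are given as CPM, counts relative to library size, after TMM scaling, a normalization that sets the bulk of genes equal between lines, or per kilobase of merged exons (RPKM) where levels of different genes are compared. The biological coefficient of variation, the spread between lines beyond counting, was 0.388 among the EV lines of mouse 2 and between 0.0849 and 0.103 in the other 3 sets of lines. Among the fits that each left out 1 line, that without EV line 2C moved the counts of called genes most. Member results whose call changed in that fit are also given without EV line 2C. B lineage markers summed to between 2950 and 5526 CPM with EV and between 3273 and 4275 CPM with BCR-ABL1, and 12 of 12 passed the filter, whereas sums of myeloid markers did not exceed 1.44 CPM, those of mast and basophil markers 0.245 CPM and those of stromal markers 1.78 CPM in any line, with no gene of these 3 lists past the filter. These 3 maxima were all in EV line 2A, which had the lowest total count. In the other lines the highest sums were 0.899, 0.0596 and 0.358 CPM. Sums of T and NK cell markers did not exceed 4.62 CPM. Sums of erythroid and megakaryocyte markers ran from 3.12 to 9.14 CPM with EV and from 6.83 to 13.7 CPM with BCR-ABL1. Single markers changed by the test used throughout, edgeR glmTreat for a change beyond 1.5-fold. The B lineage gene Dntt changed by 4.30 on the log2 scale (adjusted p = 0.0396, and 0.0533 with mouse as replicate block, a term in the fit), Hbb-bt by 1.72 (adjusted p = 0.0296), Itga2b by -0.99 (adjusted p = 0.0470) and Cd3d by -2.67 (adjusted p = 0.000511). Their part in the members' values was not tested. In bulk RNA, a change in the number of cells of a kind and a change of RNA per cell cannot be told apart.

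The promoters are shown for the 3 members with the largest log2 fold changes, Uhrf2, Dnmt3b and Tet2, and for Dnmt3a, the member whose groups separated downwards. Each is the 250 bases before a RefSeq transcript start on GRCm38.p6, 5′ to 3′ on the strand of the gene, with CpG sites in capitals, since CpG sites are the substrate of these enzymes. The windows are chr19:30030263-30030512 (plus strand) for Uhrf2, chr2:153649199-153649448 (plus strand) for Dnmt3b, chr3:133544391-133544640 (minus strand) for Tet2 and chr12:3806730-3806979 (plus strand) for the first of 3 Dnmt3a windows, and none overlaps a GENCODE exon. The windows of Tet2 and Dnmt3a lie inside the bounds of the gene, since other transcripts start further upstream.
Uhrf2: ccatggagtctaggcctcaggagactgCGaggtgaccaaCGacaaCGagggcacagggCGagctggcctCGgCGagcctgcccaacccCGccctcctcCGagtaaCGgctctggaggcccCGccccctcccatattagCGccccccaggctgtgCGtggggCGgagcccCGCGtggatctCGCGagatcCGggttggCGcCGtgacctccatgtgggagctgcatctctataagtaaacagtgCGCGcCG
Dnmt3b: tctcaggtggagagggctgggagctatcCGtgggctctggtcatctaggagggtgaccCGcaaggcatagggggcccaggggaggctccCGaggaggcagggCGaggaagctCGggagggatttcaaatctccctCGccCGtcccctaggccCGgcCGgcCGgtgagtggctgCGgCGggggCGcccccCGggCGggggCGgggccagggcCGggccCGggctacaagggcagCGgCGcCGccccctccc
Tet2: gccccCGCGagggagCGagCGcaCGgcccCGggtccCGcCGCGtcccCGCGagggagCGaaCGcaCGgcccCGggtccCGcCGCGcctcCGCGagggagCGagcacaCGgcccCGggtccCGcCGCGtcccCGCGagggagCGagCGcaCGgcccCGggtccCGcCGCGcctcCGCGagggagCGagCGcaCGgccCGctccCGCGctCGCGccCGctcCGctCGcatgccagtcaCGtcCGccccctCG
Dnmt3a: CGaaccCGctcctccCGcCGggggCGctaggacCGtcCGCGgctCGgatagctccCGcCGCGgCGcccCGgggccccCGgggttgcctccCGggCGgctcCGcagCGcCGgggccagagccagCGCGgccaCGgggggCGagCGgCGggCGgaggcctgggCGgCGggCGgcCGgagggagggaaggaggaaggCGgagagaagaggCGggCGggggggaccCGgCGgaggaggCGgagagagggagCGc
They held 23 CpG sites in Uhrf2, 21 in Dnmt3b, 51 in Tet2 and 38 in the Dnmt3a window shown (40 and 15 in the other 2), against a median of 6 over 32851 windows of all genes, of which 17.9% held at least 20. The Tet2 window is made largely of a tandem repeat. Of the other members, Tet3 held 17 and Tet1 15, while Dnmt1 and Uhrf1, with several annotated starts, ranged from 2 to 26 and from 10 to 30. Sites of STAT factors, which act below both IL7R and BCR-ABL1, were searched as TTCNNNGAA, and none of the members' windows held this word, which 7.02% of all windows hold.

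Uhrf2 (ENSMUSG00000024817, chr19:30030513-30093722, plus strand) was the only member that passed the test for a change beyond 1.5-fold. In EV lines of mouse 1 it was at 31.2, 31.0 and 31.9 CPM, and in EV lines of mouse 2 at 98.3, 105.4 and 95.5 CPM. In BCR-ABL1 lines it was at 220.3, 238.0 and 228.7 CPM for mouse 1 and at 222.0, 211.2 and 213.3 CPM for mouse 2. The EV lines thus fell into separate levels by mouse, the BCR-ABL1 lines did not, and every BCR-ABL1 line lay above every EV line. Uhrf2 rose 3.39-fold from a mean of 65.6 ± 37.6 CPM (SD, n = 6) to 222.3 ± 9.95 CPM (SD, n = 6), a log2 fold change of 1.76 with an SE of 0.37 (edgeR glmTreat against 1.5-fold, Benjamini-Hochberg adjusted p = 0.0111). Of all genes tested, 12.5% were called by this test in either direction and 5.99% as higher, so that 1 of 8 members is a share close to that of all genes. With mouse as replicate block 14.7% of genes were called, and the log2 fold change of Uhrf2 was 1.99 (adjusted p = 0.00127). The call also held in each of the other 21 alternatives, with adjusted p between 1.06e-10 and 0.0217 over all 22.

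The rise of Uhrf2 differed between the mice. Within mouse 1 its log2 fold change was 2.87 (SE 0.03, glmTreat adjusted p = 1.35e-09) and within mouse 2 it was 1.11 (SE 0.05, adjusted p = 5.18e-05). The difference of -1.76 (SE 0.06) passed the interaction test in edgeR (adjusted p = 7.9e-07), as did 16.9% of all genes but none of the other 7 members. Uhrf2 was higher in mouse 2 than in mouse 1 by 1.67 on the log2 scale in EV lines (adjusted p = 3.05e-07), a comparison in which 10.3% of genes were called, and differed by -0.09 in BCR-ABL1 lines (adjusted p = 1), where 2.65% were called. These tests compare lines, with 1 mouse on each side, and the mouse and all that came with its culture cannot be told apart.

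**Figure D1:**
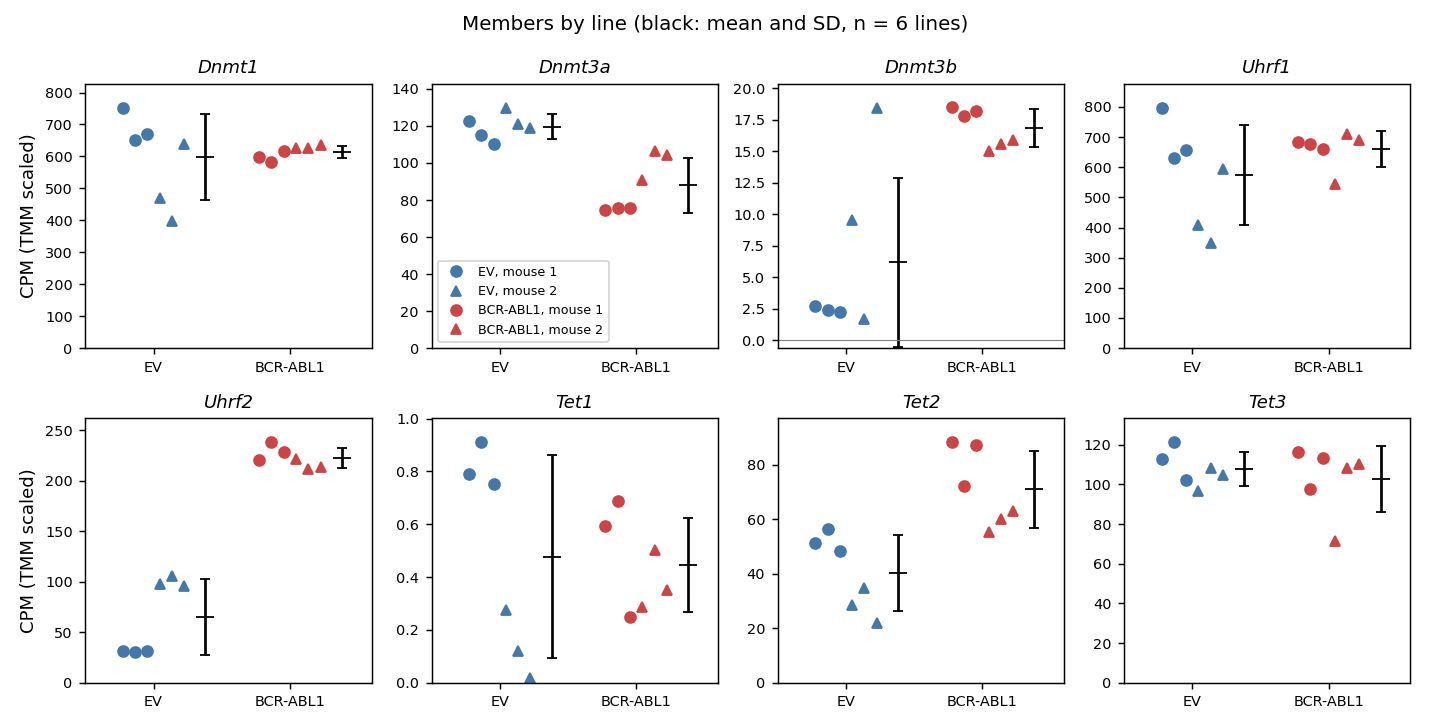
Level of each member in CPM (TMM scaled, linear axes) in the 12 lines, with circles for mouse 1, triangles for mouse 2, and the mean and SD of 6 lines in black. Uhrf2 separates the conditions and, among EV lines, the mice, while Dnmt3b is at 18.5 CPM in EV line 2C, within the range of the BCR-ABL1 lines.

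The neighbours of the members were looked at for changes along the chromosome, after their values were seen. Among the 16 nearest tested genes, 1 on each side of each member, 2 passed the 1.5-fold test, which is the share of all genes called (12.5%). Gldc, which encodes glycine decarboxylase and ends 4.7 kb beyond the end of Uhrf2 on the opposite strand, had a log2 fold change of 6.19 (SE 0.59, edgeR glmTreat adjusted p = 0.000792). It had 0 counts in the 3 EV lines of mouse 1 and 10, 2 and 2 counts in those of mouse 2, against 104 to 444 counts in the BCR-ABL1 lines. At so few counts the fitted value depends on the prior count. Il33, the nearest tested gene on the other side of Uhrf2 at a distance of 69.8 kb, had a log2 fold change of -0.67 (adjusted p = 0.652). The other called neighbour, S1pr2 beside Dnmt1, fell by 1.53 on the log2 scale (adjusted p = 0.0246).

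Uhrf1 and Dnmt1, the maintenance pair, were the most abundant members and did not pass the test in either direction. Uhrf1 (ENSMUSG00000001228, chr17:56303321-56323486, plus strand) ranged from 349 to 797 CPM in EV lines with a median of 613, and from 545 to 710 CPM in BCR-ABL1 lines with a median of 681 (log2 fold change 0.21, SE 0.19, edgeR glmTreat adjusted p = 1). Dnmt1 (ENSMUSG00000004099, chr9:20907209-20959888, minus strand) ranged from 399 to 753 CPM in EV lines with a median of 646, and from 581 to 635 CPM in BCR-ABL1 lines with a median of 621 (log2 fold change 0.04, SE 0.14, adjusted p = 1). Both were lowest in the same EV lines, 2A and 2B, in which Uhrf1 was at 410 and 349 CPM and Dnmt1 at 471 and 399 CPM. In EV lines 2A and 2B the B lineage markers summed to 5100 and 5526 CPM, against 2950 to 3338 CPM in the other EV lines. How far this goes with the levels of Uhrf1 and Dnmt1 was not tested. The BCR-ABL1 lines lay within the range of the EV lines for both genes. Within mouse 1 the log2 fold changes were -0.04 (SE 0.11) for Uhrf1 and -0.21 (SE 0.07) for Dnmt1, and within mouse 2 they were 0.52 (SE 0.26) and 0.32 (SE 0.20), and their differences between the mice had adjusted interaction p of 0.171 and 0.103. Without EV line 2C these differences were 0.81 for Uhrf1 and 0.74 for Dnmt1 and passed the interaction test (adjusted p = 0.00332 and 0.000536). In that fit 5461 genes passed it, against 2536 with all lines, so that calls made without EV line 2C are not particular to the members.

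Over the 12 lines the log2 CPM of Dnmt1 and Uhrf1 had a Pearson correlation of 0.909, given as a description since the lines share donors and conditions. The summed CPM of 24 genes of replication and proliferation, to which abundant genes such as Top2a and Mki67 contribute most, was between 7346 and 7771 in EV lines of mouse 1, between 4743 and 6407 in EV lines of mouse 2 and between 7530 and 8587 in BCR-ABL1 lines, and 0 of the 24 passed the 1.5-fold test while 7 passed a test against no change, all higher, a test that called 48.5% of all genes in either direction. The 1.5-fold test called 12.5% of all genes. BCR-ABL1 line 2A, in which Uhrf1 was lowest among BCR-ABL1 lines, had the highest sum of the 24 genes. EV lines 2A and 2B had the lowest sums, 5467 and 4743 CPM. The most abundant of these genes, Top2a, which untangles replicated DNA, had a log2 fold change of 0.33 (SE 0.12, edgeR adjusted p = 1 against 1.5-fold and 0.0385 against no change), without overlap between the conditions. It was 0.08 in lines of mouse 1 alone and 0.63 in those of mouse 2 alone, and this difference passed the interaction test in edgeR (adjusted p = 0.0311). Ccna2, Ccne1, Ccne2, Rrm2, Cdc45, Cdc6, E2f1, Chaf1a, Aurkb, Bub1 and Mki67 passed it too (adjusted p from 0.000288 to 0.0490). The rest of the 24 genes did not, and 16.9% of all genes did. The part of the 24 genes in the levels of Dnmt1 and Uhrf1 was not tested. A word of the E2F family, which drives genes of the S phase, was searched as TTTCCCGC, TTTCGCGC, TTTGGCGC or TTTGCCGC on both strands, and 1 window each of Dnmt1 and Uhrf1 held one, as did 1.86% of all windows. The 30 bases around each word, in capitals, are shown since Dnmt1 and Uhrf1 varied together; the Dnmt1 word starts 219 bases before its most downstream annotated start (chr9:20952824-20952853, minus strand) and the Uhrf1 word 185 bases before its more downstream start (chr17:56304117-56304146, plus strand).
Dnmt1: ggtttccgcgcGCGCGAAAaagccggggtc
Uhrf1: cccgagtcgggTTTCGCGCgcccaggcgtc
No other member's window held one of these words.

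Of the de novo enzymes, Dnmt3b was higher in BCR-ABL1 lines of mouse 1. Dnmt3a lay lower in BCR-ABL1 lines of both mice but did not pass the 1.5-fold test. Dnmt3b (ENSMUSG00000027478, chr2:153649450-153687730, plus strand) was at 2.7, 2.4 and 2.3 CPM in EV lines of mouse 1 and at 9.5, 1.7 and 18.5 CPM in those of mouse 2, which are 86 to 1024 counts. In BCR-ABL1 lines it was at 18.5, 17.8 and 18.2 CPM for mouse 1 and at 15.0, 15.6 and 15.9 CPM for mouse 2. EV line 2C therefore lay within the range of the BCR-ABL1 lines, and the other EV lines lay below that range. Among BCR-ABL1 lines, those of mouse 2 lay below those of mouse 1, which EV line 2C was nearer. The log2 fold change was 1.45 (SE 0.56) and did not pass the 1.5-fold test (edgeR glmTreat adjusted p = 0.208), whereas against no change the adjusted p was 0.0462. Without EV line 2C it was 2.20 and passed the 1.5-fold test (adjusted p = 0.00606). Within mouse 1 Dnmt3b rose by 2.90 on the log2 scale (SE 0.08, adjusted p = 0.00562), and within mouse 2 its log2 fold change was 0.64 (SE 1.01, adjusted p = 0.888). The difference of -2.26 between the mice had an adjusted interaction p of 0.0748 in edgeR. It passed without EV line 2B (-2.76, adjusted p = 0.000100) and in DESeq2 (adjusted p = 0.0195), and was -1.40 without EV line 2C (adjusted p = 0.0833).

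Dnmt3a (ENSMUSG00000020661, chr12:3806007-3914443, plus strand) was at 122.6, 115.1 and 110.5 CPM in EV lines of mouse 1 and at 129.9, 121.0 and 118.9 CPM in those of mouse 2. In BCR-ABL1 lines it was at 74.7, 75.5 and 75.7 CPM for mouse 1 and at 90.6, 106.7 and 104.5 CPM for mouse 2. The lowest EV line lay above the highest BCR-ABL1 line, and the separation was wider in mouse 1. Dnmt3a and Uhrf2 were the 2 members whose conditions did not overlap, a pattern that 25.6% of all genes showed. The log2 fold change of Dnmt3a was -0.44 (SE 0.10, adjusted p = 1 against 1.5-fold and 0.00367 against no change, both in edgeR). It was -0.62 within mouse 1 (SE 0.04, glmTreat adjusted p = 0.401) and -0.29 within mouse 2 (SE 0.08, adjusted p = 1). The difference of 0.33 between the mice had an adjusted interaction p of 0.0684 in edgeR, and passed without EV line 2C (0.31, adjusted p = 0.0436), without BCR-ABL1 line 2A (0.40, adjusted p = 0.0226) and in DESeq2 (adjusted p = 0.0169). Against no change 48.5% of all genes were called, and 4 of 8 members, Dnmt3a, Dnmt3b, Uhrf2 and Tet2, so that the members were called about as often as genes at large.

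**Figure D2:**
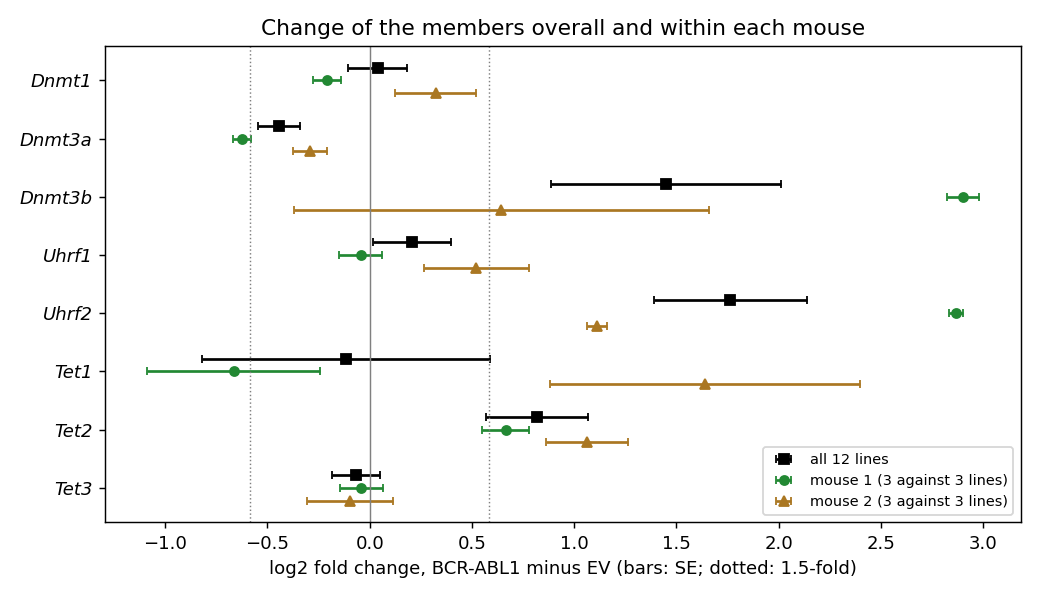
Log2 fold change of each member between BCR-ABL1 and EV lines over all 12 lines and within each mouse, with bars for the SE and dotted lines at 1.5-fold in either direction. Uhrf2 and Dnmt3b lie near 2.9 in mouse 1 and at 1.11 and 0.64 in mouse 2, and the bar of Dnmt3b in mouse 2 spans 0.

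Among the Tet genes, Tet2 was higher in BCR-ABL1 lines of either mouse, Tet3 lay in a like range in both conditions and Tet1 had few counts. Tet2 (ENSMUSG00000040943, chr3:133463679-133545139, minus strand) was at 51.4, 56.5 and 48.3 CPM in EV lines of mouse 1 and at 28.7, 34.8 and 21.9 CPM in those of mouse 2. In BCR-ABL1 lines it was at 88.2, 72.1 and 87.3 CPM for mouse 1 and at 55.3, 59.9 and 63.2 CPM for mouse 2. The conditions did not overlap within either mouse, and over both mice only EV line 1B and BCR-ABL1 line 2A crossed. The log2 fold change was 0.82 (SE 0.25) and missed the 1.5-fold test (edgeR glmTreat adjusted p = 0.259). It passed with mouse as replicate block at 0.86 (adjusted p = 0.0364), so that 2 of 8 members, Uhrf2 and Tet2, were called in that fit, which called 14.7% of all genes, and it passed against no change (adjusted p = 0.0105). It missed with line pair as replicate block (0.87, adjusted p = 0.0781) and in DESeq2 (0.84, adjusted p = 1). Within mouse 2 the log2 fold change of Tet2 was 1.06 (SE 0.20), with an adjusted p of 0.0117 in the fit of all 12 lines and of 0.0581 in a fit of the lines of mouse 2 alone. Within mouse 1 it was 0.66 (SE 0.11, adjusted p = 0.381). The difference between the mice had an adjusted interaction p of 0.246, and passed without EV line 2B (0.57, adjusted p = 0.0432).

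Tet3 (ENSMUSG00000034832, chr6:83362373-83459084, minus strand) ranged from 96.5 to 121 CPM in EV lines with a median of 107, and from 71.3 to 116 CPM in BCR-ABL1 lines with a median of 109 (log2 fold change -0.07, SE 0.12, edgeR glmTreat adjusted p = 1). BCR-ABL1 line 2A was lowest, as it was for Uhrf1 among BCR-ABL1 lines. Tet1 (ENSMUSG00000047146, chr10:62804570-62908996, minus strand) had 42, 63 and 49 counts in EV lines of mouse 1 and 9, 6 and 1 counts in those of mouse 2, the last under the floor of 3 counts. In BCR-ABL1 lines it had 35, 33 and 11 counts for mouse 1 and 15, 33 and 17 counts for mouse 2. Tet1 was lower in EV lines of mouse 2 than of mouse 1, with a log2 fold change of -2.72 (SE 0.73, edgeR glmTreat adjusted p = 0.0157), and with Uhrf2 it made up the 2 of 8 members called in that comparison, which called 10.3% of all genes. The comparison includes EV line 2C, with 1 count of Tet1, and is not given without that line. None of the 8 was called between the mice in BCR-ABL1 lines, where 2.65% of all genes were. Over all lines the log2 fold change of Tet1 between the conditions was -0.11 (SE 0.70, edgeR glmTreat adjusted p = 1). Its sign differed between the mice, with -0.67 in mouse 1 (SE 0.42) and 1.64 in mouse 2 (SE 0.76), and the edgeR interaction test gave an adjusted p of 0.0683. This difference passed without EV line 2A (3.15, adjusted p = 0.0204), without EV line 2C (1.72, adjusted p = 0.0451) and in DESeq2 (adjusted p = 0.0339).

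Per kilobase of merged exons the members ranged from over 100 RPKM to under 0.1 RPKM. In EV lines the mean was 134.6 RPKM for Uhrf1, 81.0 for Dnmt1, 7.63 for Uhrf2, 7.19 for Dnmt3a, 6.45 for Tet3, 2.39 for Tet2, 1.21 for Dnmt3b and 0.031 for Tet1. The ranges of Uhrf1 and Dnmt1 overlapped, as did those of Uhrf2, Dnmt3a and Tet3 and those of Tet2 and Dnmt3b, although Uhrf1 lay above Dnmt1 in each of the 12 lines. In BCR-ABL1 lines the mean was 155.3 RPKM for Uhrf1, 83.2 for Dnmt1, 25.9 for Uhrf2, 6.16 for Tet3, 5.29 for Dnmt3a, 4.21 for Tet2, 3.30 for Dnmt3b and 0.029 for Tet1. There Uhrf1, Dnmt1 and Uhrf2 each stood clear of their neighbours in the order, while the ranges of Tet3, Dnmt3a and Tet2 overlapped and that of Dnmt3b overlapped Tet2. The length used matters most for Uhrf2, whose merged exons cover 8590 bases and whose longest transcript 3536. On the longest transcript Uhrf2 was at 18.5 RPKM in EV and 62.9 RPKM in BCR-ABL1 lines, and within each condition the members kept the order they had on merged exons.

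**Figure D3:**
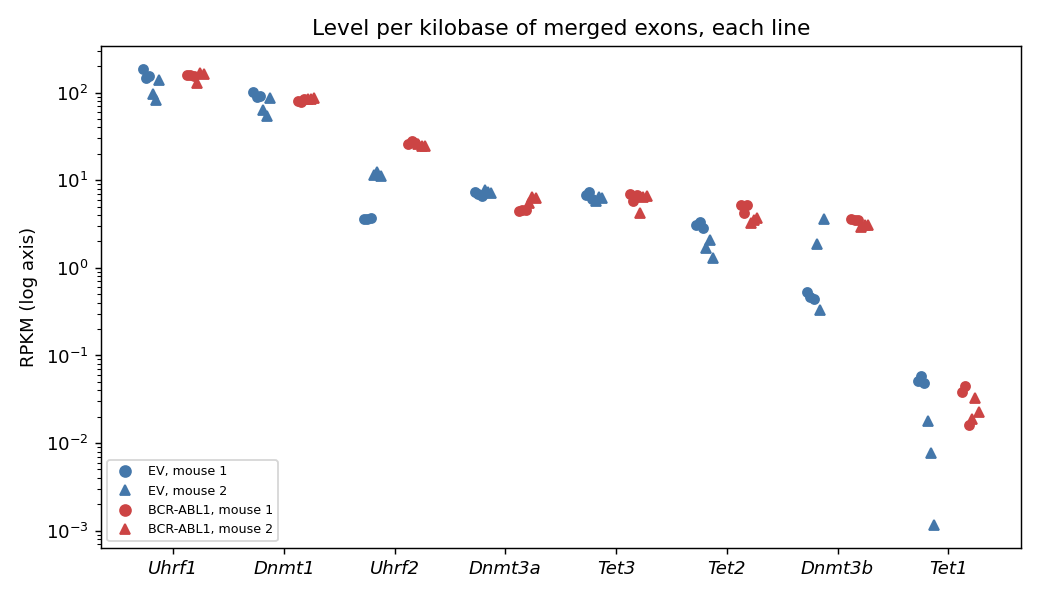
Level of the members in RPKM on merged exons (log axis), ordered by their mean in EV lines, with 1 point per line. Uhrf1 and Dnmt1 lie between 54.1 and 187 RPKM, the next 5 genes between 0.335 and 27.7 RPKM, and Tet1 at most at 0.0589 RPKM.

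The make-up of each family's RNA on this scale is given as a description. Uhrf2 made up 1.90% to 2.38% of Uhrf1 and Uhrf2 together in EV lines of mouse 1 and 7.37% to 13.0% in those of mouse 2, against 12.9% to 16.8% in BCR-ABL1 lines, so that EV line 2B lay within the range of the latter. This share rests on the length used, and its mean was 6.28% in EV and 14.4% in BCR-ABL1 lines on merged exons but 11.7% and 25.5% on the longest transcript. Dnmt3b made up a mean of 12.7% ± 11.6 (SD, n = 6) of the pair Dnmt3a and Dnmt3b in EV lines and 38.8% ± 5.86 (SD, n = 6) in BCR-ABL1 lines, with 33.6% in EV line 2C. On the longest transcript these means were 9.41% and 30.4%. Tet2 made up 17.1% to 31.7% of the 3 Tet genes in EV lines and 35.3% to 43.3% in BCR-ABL1 lines. The share of Dnmt1 among the 3 methyltransferases was 90.2% ± 2.72 (SD, n = 6) in EV lines and 90.7% ± 0.487 (SD, n = 6) in BCR-ABL1 lines. These means cover opposite directions in the mice. In mouse 1 the share was 92.3% to 92.8% with EV and 90.7% to 91.1% with BCR-ABL1. In mouse 2 it was 86.8% to 89.0% with EV and 90.0% to 91.0% with BCR-ABL1.

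The genes whose log2 CPM over the 12 lines followed a member most closely are named by Pearson correlation. For Uhrf2 they were Foxc1 (r = 0.998), Itga6 (r = 0.994) and Zfp53 (r = 0.994), with log2 fold changes of 1.82, 1.53 and 1.08 between the conditions, which their choice by likeness to Uhrf2 over the same lines fixes. For Dnmt1 they were Tbl2 (r = 0.987), Topbp1 (r = 0.980) and Chtf18 (r = 0.979), and for Uhrf1 Tent4a, Cdca8 and Skp2 (r from 0.950 to 0.953). For Dnmt3b the closest with a gene name was Suclg1 (r = 0.981), after the predicted gene Gm38144 (r = 0.988), and for Dnmt3a it was Emid1 (r = 0.964). For Tet3 it was Csnk1g1 (r = 0.936) and for Tet1 Agbl3 (r = 0.951). Ranked by Spearman correlation, 1 of the 3 genes was the same for Tet1, and 0 of 3 for Dnmt1, Dnmt3a, Dnmt3b, Uhrf1, Uhrf2 and Tet3. Among the members, Uhrf2 and Dnmt3b had the closest correlation (r = 0.830) after Dnmt1 and Uhrf1.

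Genes that work with the members mostly stayed under the 1.5-fold test, as did most genes, since it called 12.5% of all genes. Of 14 tested partners of maintenance methylation, 0 were called and 12 had a log2 fold change above 0. Their median was 0.27 against -0.02 over all genes. Of the 14, 7 were higher against no change, a test that called 48.5% of genes in either direction and 3389 of 15038 as higher. Hells, a chromatin remodeller needed for DNA methylation, ranged from 98.3 to 224 CPM with EV and from 256 to 321 CPM with BCR-ABL1 (log2 fold change 0.71, SE 0.21, edgeR glmTreat adjusted p = 0.398). Its partner Cdca7 had 0.65 (SE 0.19, adjusted p = 0.551) and Cdca7l 0.53 (SE 0.12). Pcna, the sliding clamp of replication, had 0.32 (SE 0.10), and Usp7, which deubiquitinates Uhrf1 and Dnmt1, 0.25 (SE 0.06). Lig1, the ligase that joins Okazaki fragments, had -0.10 (SE 0.19), and the proliferation marker Mki67 0.08 (SE 0.11). Their signs differed between the mice. In lines of mouse 1 alone Lig1 had -0.36 and Mki67 -0.13, and in those of mouse 2 alone 0.23 and 0.36. The difference passed the edgeR interaction test for Mki67 (adjusted p = 0.0192) but not for Lig1 (adjusted p = 0.150).

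Of 12 tested genes of the base excision repair that removes Tet products, 0 were called against 1.5-fold, which called 12.5% of all genes, and 4 were higher and 4 lower against no change, which called 48.5%. Tdg, the glycosylase that excises formyl- and carboxylcytosine, had a log2 fold change of 0.42 (SE 0.06, edgeR adjusted p = 1 against 1.5-fold and 0.000279 against no change). Mbd4, a glycosylase for T and U opposite G at CpG sites, ranged from 29.2 to 47.4 CPM with EV and from 22.3 to 23.2 CPM with BCR-ABL1, without overlap (log2 fold change -0.79, SE 0.11, adjusted p = 0.0742 against 1.5-fold). Without EV line 2C it passed (-0.85, adjusted p = 0.00670), and likewise without EV line 2A (-0.84, adjusted p = 0.0378). In lines of mouse 1 alone Mbd4 passed at -0.96 (edgeR glmTreat adjusted p = 9.13e-05), and in lines of mouse 2 alone it was at -0.55 (adjusted p = 0.873). The fit of mouse 1 alone called 2512 genes as higher and 1877 as lower, and that of mouse 2 alone 614 and 408. The difference of Mbd4 between the mice had an adjusted interaction p of 0.0597 in edgeR. Smug1, a uracil glycosylase, had -0.25 (SE 0.06), and Parp1, the most abundant gene of this list, -0.07 (SE 0.06).

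Among 12 tested genes of Tet cofactors and partners, Idh2 was called against 1.5-fold, a test that called 12.5% of all genes. With mouse as replicate block, which called 14.7% of all genes, Gadd45a was called as well (log2 fold change 1.91, SE 0.98, edgeR glmTreat adjusted p = 0.278 without and 0.0241 with the block). The change of Gadd45a differed between the mice (edgeR interaction test, adjusted p = 0.00446), as did that of 16.9% of all genes. Gadd45a, a stress gene linked to demethylation, was at 0.0722 to 0.263 CPM in EV lines of mouse 1, at 1.21 to 6.00 CPM in those of mouse 2 and at 5.12 to 10.3 CPM with BCR-ABL1. Idh2, the mitochondrial isocitrate dehydrogenase that makes 2-oxoglutarate, rose from between 1.66 and 10.6 CPM with EV to between 42.1 and 91.3 CPM with BCR-ABL1 (log2 fold change 2.85, SE 0.44, edgeR glmTreat adjusted p = 0.000466), and EV line 2C was the lowest. In lines of mouse 2 alone the value was 2.73 and missed the test (adjusted p = 0.0577), and in those of mouse 1 alone it was 2.95. This difference of Idh2 did not pass the edgeR interaction test (adjusted p = 0.869). Oga, the most abundant gene of that list, had 0.05 (SE 0.11). Among 13 tested genes of methyl donor metabolism, Mtap, which salvages methylthioadenosine, rose from between 13.3 and 67.4 CPM with EV to between 86.0 and 103.7 CPM with BCR-ABL1 (log2 fold change 1.43, SE 0.31, edgeR glmTreat adjusted p = 0.0162). In lines of mouse 2 alone it was 1.26 and missed the test (adjusted p = 0.410), and in those of mouse 1 alone it was 1.61. This difference of Mtap did not pass the edgeR interaction test (adjusted p = 0.749). Mat2a, which makes the methyl donor S-adenosylmethionine, had 0.51 (SE 0.12, adjusted p = 1 against 1.5-fold and 0.00314 against no change).

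None of 9 methyl-CpG readers, 7 binders of unmethylated CpG, 7 genes of de novo recruitment and histone marks or 2 deaminases was called against 1.5-fold. That test called 12.5% of all genes. Against no change, which called 48.5%, 1 reader was higher and 4 lower, and 4 binders were lower. Of the recruitment and histone mark genes, 3 were higher and 2 lower. Kdm5b had the largest change of these lists (log2 fold change 2.21, SE 0.67, edgeR glmTreat adjusted p = 0.0736). It was at 0.144 to 1.78 CPM with EV and 1.52 to 4.39 CPM with BCR-ABL1. Its change differed between the mice (edgeR interaction test, adjusted p = 0.0113). The most abundant of each list were Mbd2 (log2 fold change 0.44, SE 0.11), Kdm2a (-0.11, SE 0.07), Nsd2 (0.07, SE 0.13) and Apobec3 (0.15, SE 0.16), each with an edgeR glmTreat adjusted p of 1. Nsd2 was at -0.22 in lines of mouse 1 alone and at 0.41 in those of mouse 2 alone. This difference passed the edgeR interaction test (adjusted p = 0.0178), as did 16.9% of all genes. In lines of mouse 1 alone Mbd2 passed at 0.69 (edgeR glmTreat adjusted p = 0.0326), and in lines of mouse 2 alone it was at 0.23. This difference of Mbd2 had an adjusted interaction p of 0.0508 in edgeR. Of the relatives of the writers, Trdmt1, which methylates tRNA, had 0.47 (SE 0.09), and Dnmt3l, the inactive partner of the de novo enzymes in germ cells, did not exceed 11 counts in any line and was not tested. The 20 germline genes that promoter methylation is known to silence in somatic cells had at most 13 counts in any line and were all under the filter.

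Of 26 imprinted genes 6 were tested and 1 was called against 1.5-fold, a test that called 12.5% of all genes. With mouse as replicate block, which called 14.7% of all genes, Zrsr1 was called as well (log2 fold change 1.77, SE 1.12, edgeR glmTreat adjusted p = 0.334 without and 0.0439 with the block). The change of Zrsr1 differed between the mice (edgeR interaction test, adjusted p = 0.0347), as did that of 16.9% of all genes. Grb10, an adaptor protein that dampens receptor signalling, had 1 to 22 counts in EV lines and 220 to 757 counts in BCR-ABL1 lines, with a fitted log2 fold change of 5.73 (SE 0.62, edgeR glmTreat adjusted p = 0.000534) that depends on the prior count at such low EV levels. The BCR-ABL1 lines of mouse 1 had 449 to 757 counts and those of mouse 2 had 220 to 329. In lines of mouse 2 alone the value was 4.30 and missed the test (edgeR glmTreat adjusted p = 0.0532), and in those of mouse 1 alone it was 7.50. This difference of Grb10 had an adjusted interaction p of 0.0784 in edgeR. Kcnq1ot1, a non-coding RNA of an imprinted locus and the most abundant of this list, had 0.04 (SE 0.09).

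**Figure D4:**
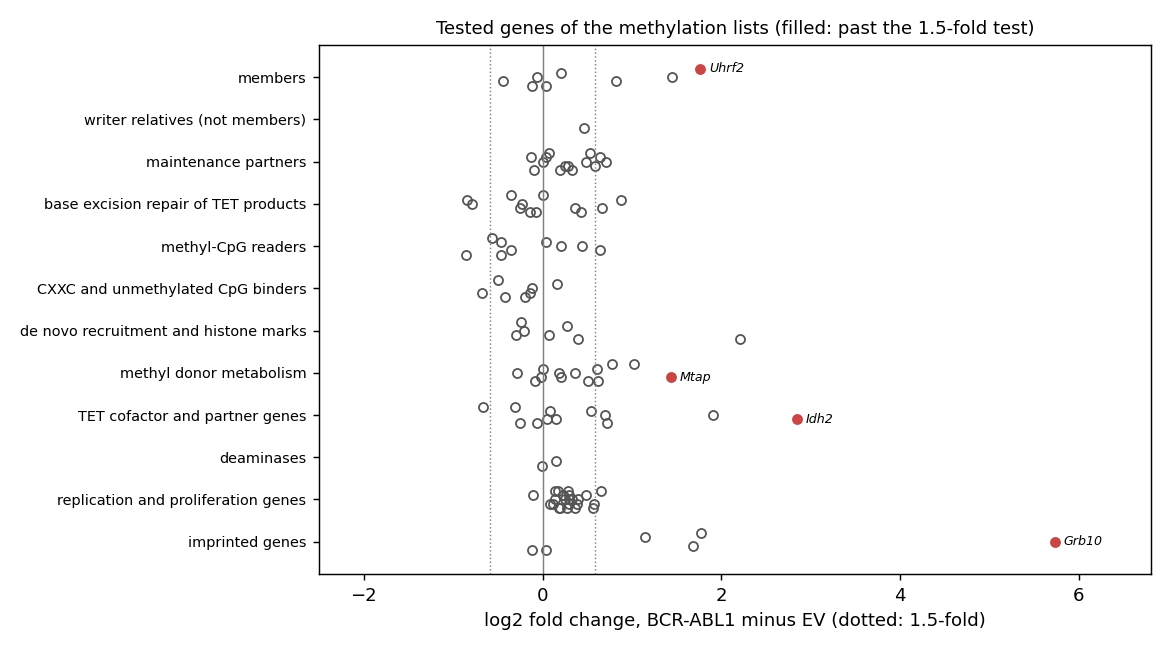
Log2 fold change between BCR-ABL1 and EV lines for the members and for the tested genes of each list of methylation, proliferation or imprinted genes, with 1 point per gene and filled red points for genes past the 1.5-fold test. Uhrf2, Mtap, Idh2 and Grb10 are the 4 called genes plotted, at 1.76, 1.43, 2.85 and 5.73.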

How the data were processed

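Bone marrow-derived pre-B lines, 6 with EV and 6 with BCR-ABL1, were sequenced from stranded total RNA libraries, and groups were taken from the sample labels. The authors deposited whole-number counts per gene, without normalization or pooling. Their processing notes name Trimmomatic 0.36, TopHat2 2.1.1, Bowtie2 2.3.2, featureCounts 1.5.3 and GRCm38. The strand setting of the counting and the annotation used are not given in the sources used here, so reads of overlapping genes, such as antisense genes at Dnmt3a, Dnmt3b, Tet2 and Tet3, may not be separated. Symbols and lengths came from GENCODE M21 (51633 of 51826 identifiers matched, with older symbols looked up through RefSeq), and promoter sequences came from RefSeq on GRCm38.p6, which held all 8 members.

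In R 4.3.3 with edgeR 4.0.16, genes were filtered with filterByExpr, scaled with TMM and tested over all 12 lines with glmTreat against 1.5-fold on a quasi-likelihood fit with condition as the only term, with Benjamini-Hochberg adjustment over 15038 genes and a threshold of 0.05. The study's fit was a likelihood ratio test, which was run as an alternative. Mouse and condition formed 4 sets of lines for the interaction (glmQLFTest) and the tests within mice. SEs come from the spread of log2 CPM (prior count 2) between lines. Counting error is small at 34791011 to 66011225 counts per line, where 3 counts correspond to 0.0433 to 0.0920 CPM. These floors cover counting error only, since reads were not marked by molecular identifiers. Alternatives were RLE scaling, no filter, a CPM of at least 1 in 6 lines, the likelihood ratio fit, DESeq2 1.42.0, testing against no change, a replicate block of mouse or of line pair, each mouse alone, and each line left out. The longest transcript as length for family shares was added after seeing the data. The scripts were tested on simulated data. Plots used matplotlib 3.10.9 in Python 3.11.15.

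The genes named are the 8 members and, from each list other than those of cell type markers, up to 3 called genes with the largest rise and 3 with the largest fall, the most abundant tested gene, and 12 genes chosen for their role. Chromosomal neighbours, changed markers, Gadd45a, Kdm5b, Zrsr1 and the replication genes listed for the interaction test were named after their values were seen. The genes most like Tet2 are not reported here. The members and lists were chosen with earlier results of these data known.

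The lines share numbers 1A to 2C, and per the labels the digit is the mouse. Correlations of the deviations from condition means, taken between an EV and a BCR-ABL1 line, ran from 0.0853 to 0.240 where both lines came from 1 mouse and from -0.203 to -0.0636 where they did not, and for equal letters from -0.109 to 0.0856 once mouse means were removed. The deviations thus went with the mouse. Lines of unequal letters were not compared, so that these values cannot tell whether the letter also pairs lines. The labels call the lines separate, prepared in independent experiments, and chi-square per gene within a mouse and condition was between 10.2 and 498, so that none was treated as a repeat of another.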

Additional observations from a re-analysis of the deposited data

Results flagged for a closer look

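The rise of Uhrf2 in BCR-ABL1 lines differed between the mice by -1.76 on the log2 scale (edgeR interaction test, adjusted p = 7.9e-07), with the EV lines of mouse 1 at 31.0 to 31.9 CPM and those of mouse 2 at 95.5 to 105.4 CPM. Uhrf1 in BCR-ABL1 line 2A was at 545 CPM, far below the nearest of the other 5 BCR-ABL1 lines at 662 CPM. Among 16 sets of 6 lines examined for such a gap, 1 was found, and chance gives about 1 in 20.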

How the results depend on the processing

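Uhrf2 kept its direction and its call in all 22 alternatives, and its difference between the mice in all 14. Counts of all genes moved with the test: 3389 were higher and 3897 lower against no change, 2512 and 1877 in lines of mouse 1 alone, and 408 lower in lines of mouse 2 alone. The members called were 4 against no change, 2 with mouse as replicate block and 2 in lines of mouse 1 alone. Against no change Dnmt3a (-0.44), Dnmt3b (1.45) and Tet2 (0.82) passed, Dnmt3b passed in mouse 1 alone (2.91), and Tet2 with mouse as block (0.86). The sign turned in mouse 1 alone for Dnmt1 (-0.20), Uhrf1 (-0.033), Mki67 (-0.13) and Nsd2 (-0.22), in mouse 2 alone for Lig1 (0.23) and Tet1 (1.62), and for Tet1 also with mouse (0.26) or line pair (0.29) as block. The block changed no other member's call. In DESeq2 the differences between the mice passed for Dnmt3a (0.33), Dnmt3b (-2.27) and Tet1 (2.28). The cause of these changes was not tested.

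Over the fits that each left out 1 line, 807 to 1353 genes were higher, 1 or 2 members were called, and 1891 to 5461 genes differed between the mice, with the highest value of each without EV line 2C. Log2 fold changes ranged from -0.065 to 0.14 for Dnmt1, 1.25 to 2.20 for Dnmt3b, -0.37 to 0.17 for Tet1, -0.11 to 0.013 for Tet3, -0.23 to 0.014 for Lig1, -0.027 to 0.14 for Nsd2 and -0.012 to 0.14 for Oga. They also ranged from 0.087 to 0.35 for Uhrf1, 0.022 to 0.16 for Mki67 and 0.044 to 0.23 for Apobec3. For Parp1 they ran from -0.11 to -0.021, for Kdm2a from -0.16 to -0.073 and for Kcnq1ot1 from 0.013 to 0.085. Differences between the mice ranged from 0.39 to 0.74 for Dnmt1, 0.29 to 0.40 for Dnmt3a, -2.76 to -1.40 for Dnmt3b, 0.41 to 0.81 for Uhrf1, 1.72 to 3.15 for Tet1, 0.24 to 0.57 for Tet2 and -0.16 to 0.12 for Tet3. Mtap, Idh2 and Grb10 lost their call in mouse 2 alone, with log2 fold changes of 1.26, 2.73 and 4.30 (adjusted p = 0.410, 0.0577 and 0.0532). Their differences between the mice did not pass the edgeR interaction test (adjusted p = 0.749, 0.869 and 0.0784). With 3 lines per mouse and condition, and Tet1 at 1 to 63 counts, small differences of Tet1 were not detectable.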
